A study of Mus musculus with 36 samples.

Results

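The muscarinic acetylcholine receptor genes Chrm1, Chrm2, Chrm3, Chrm4 and Chrm5 and the histamine receptor genes Hrh1, Hrh2 and Hrh3 were examined in the mouse anterior cingulate cortex (aCC). They were chosen by symbol, and all 8 were found among the 52636 genes of the expression table, 5 of the muscarinic and 3 of the histamine family. RNA came from punches of the right aCC of 36 female mice aged 8 to 11 weeks on the C57BL/6NTac-Brd1 strain, with 1 library per mouse. Mice were wild type (WT) or Brd1+/-, which carry a constitutive targeted deletion of loxP-flanked exons in 1 allele of Brd1, a gene for a scaffold of histone acetyltransferase complexes. They had received subcutaneous saline (vehicle) or imipramine (IMN) at 10 mg/kg, injected on consecutive days, and all of them, controls included, went through tail suspension, open field and forced swim tests before the brain was taken. Vehicle groups held 8 WT and 9 Brd1+/- libraries, and IMN groups held 10 WT and 9 Brd1+/- libraries.

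Muscarinic receptors carry the slow actions of acetylcholine in the cortex. Chrm1, Chrm3 and Chrm5 encode receptors coupled to Gq, which activates phospholipase C and closes the potassium channels of the M-current, and Chrm2 and Chrm4 encode receptors coupled to Gi/o, which lower cyclic AMP and restrain transmitter release. The product of Hrh1 couples to Gq and supports wakefulness, that of Hrh2 couples to Gs and raises cyclic AMP, and that of Hrh3 couples to Gi/o and acts as a presynaptic brake on histamine and other transmitters. Imipramine is a tricyclic antidepressant that inhibits the serotonin and noradrenaline transporters, and it also blocks muscarinic receptors and the Hrh1 receptor, the basis of its anticholinergic and sedating side effects.

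Values are TPM, a transcript level corrected for transcript length and expressed relative to the total of each library. A library had 24685 to 25517 genes above 0, and the number of reads behind each value is unknown. Brd1 checked the labels: it ran from 17.9 to 31.9 TPM in WT mice and from 13.5 to 20.9 TPM in Brd1+/- mice, and Brd1+/- differed from WT by -0.54 on the log2 scale (SE 0.067, adjusted p = 2.83e-05, limma) over both treatments. Cortical excitatory neuron markers were present in every library, with a summed level of 1455 to 3108 TPM over 5 genes. Glial and striatal markers varied between punches. The 7 oligodendrocyte markers summed to between 171.3 and 3230 TPM. The 12 striatal markers summed to 1604 TPM in Brd1+/- vehicle replicate 6, to 411.1 in WT IMN replicate 7 and to 391.4 in WT vehicle replicate 1, against at most 271.5 TPM in the other libraries.

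Transcripts of 4 receptors dominated. Chrm1, on chr19:8663789-8683587 (GRCm38, plus strand), had the highest median, 72.5 TPM over the 36 libraries, with a range of 45.3 to 97.5 TPM. Hrh3, on chr2:180099465-180104488 (minus strand), followed with a median of 64.0 TPM and a range of 40.0 to 118.5 TPM. Chrm3, on chr13:9875486-10360847 (minus strand), had a median of 55.1 TPM, with 25.2 to 70.4 TPM across libraries. Chrm4, on chr2:91927249-91928688 (plus strand), had a median of 35.6 TPM and ranged from 20.0 to 51.3 TPM. The leading genes thus comprised both common Gq-coupled muscarinic receptors and the Gi/o-coupled Chrm4 and Hrh3.

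The other receptors lay lower. Hrh2, on chr13:54192129-54236180 (plus strand), had a median of 11.2 TPM and a range of 7.09 to 15.4 TPM. Chrm2, on chr6:36388084-36528414 (plus strand), had a median of 4.84 TPM and ranged from 1.75 to 12.7 TPM. Hrh1, on chr6:114397936-114483296 (plus strand), had a median of 4.30 TPM and ranged from 0.274 to 17.7 TPM, the widest relative range of the 7 receptors above 1 TPM. Chrm5, on chr2:112479171-112480769 (minus strand), was near the bottom of the scale, with a median of 0.0583 TPM, a maximum of 0.244 TPM and 17 of 36 libraries at 0. Hrh4, the remaining histamine receptor gene and no member of the set, was at 0 in all 36 libraries.

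**Figure D1:**
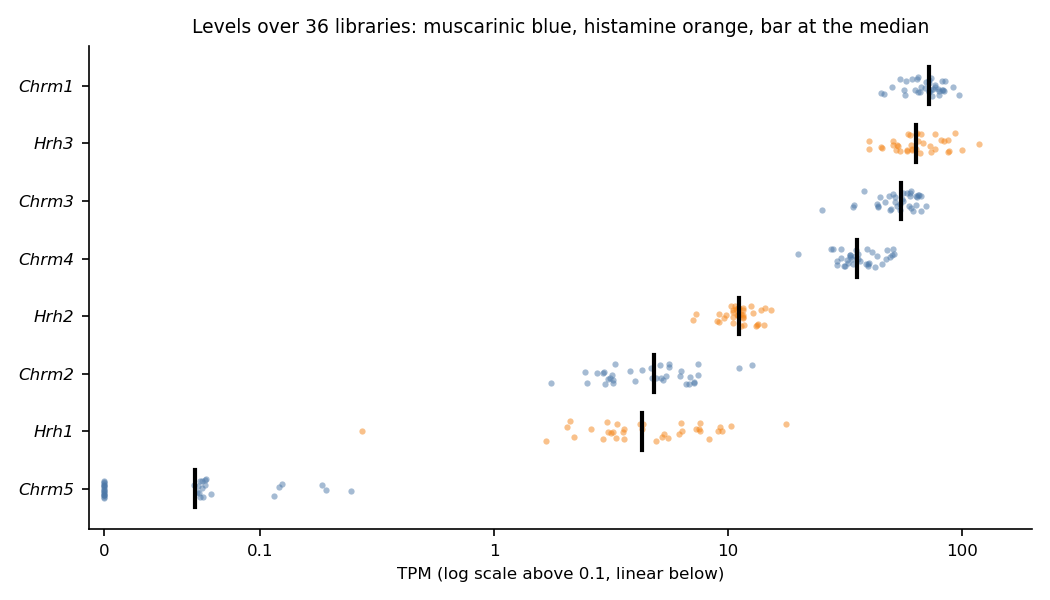
TPM of the 8 receptor genes in 36 libraries (1 point each) on an axis that is logarithmic above 0.1 TPM and linear below, with a bar at the median, muscarinic genes in blue and histamine genes in orange. Medians run from 72.5 TPM for Chrm1 to 0.0583 TPM for Chrm5, and Chrm2 and Hrh1 overlap over most of their range.

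Neighbours in this order were compared within libraries by a two-sided permutation test of the paired log2 differences, with p adjusted over the 7 pairs. The order itself came from the medians of the same libraries, so these p-values are no independent test of it. Chrm1 was above Hrh3 in 26 of 36 libraries, with a mean log2 difference of 0.11 (SD 0.38, n = 36). That mean was not distinguished from 0 (permutation p = 0.0988, adjusted p = 0.115). Hrh3 exceeded Chrm3 in 26 of 36 libraries (permutation p = 0.00114, adjusted p = 0.0016). Chrm2 was above Hrh1 in 16 of 36 libraries, with a mean log2 difference of 0.04 (SD 1.16, n = 36), which was not distinguished from 0 (permutation p = 0.838). The other 4 steps, Chrm3 over Chrm4, Chrm4 over Hrh2, Hrh2 over Chrm2 and Hrh1 over Chrm5, were seen in 32, 36, 35 and 36 of 36 libraries, each with permutation p = 1e-05, the smallest that 100000 draws can give. In the GENCODE annotation of GRCm38 the Chrm4 and Chrm5 models are single exons of coding sequence alone, so their levels per length rest on models without untranslated ends.

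Within the muscarinic family, Chrm1 made up a median of 42.5% of the summed TPM, Chrm3 33.3%, Chrm4 22.2%, Chrm2 2.87% and Chrm5 0.0308%. Thus the Gq-coupled Chrm1 and Chrm3 carried most of the muscarinic message, and Chrm4 was the principal Gi/o-coupled gene, with a share of 14.8% to 29.4% in single libraries. Within the histamine family, Hrh3 made up a median of 79.6%, Hrh2 13.4% and Hrh1 5.72%. The share of Hrh3 stayed between 68.4% and 89.4%, so the message of this Gi/o-coupled receptor was the largest of the histamine family in every punch.

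The receptors differed in how much they varied between mice of the same group. The within-group SD of log2(TPM + 0.5) was 0.80 for Hrh1, 0.59 for Chrm2, 0.37 for Hrh3, 0.32 for Chrm3, 0.26 for Chrm1, 0.25 for Chrm4 and 0.22 for Hrh2. The SD of Hrh1 was above that of 94.0% of genes of like level, that of Hrh3 above 91.1%, that of Chrm2 above 87.7% and that of Chrm3 above 87.0%. Hrh2 was among the steadier genes, above only 39.7% of those of like level. Individual mice could be far from their group for a single receptor: Brd1+/- IMN replicate 6 had the highest Chrm2 of all libraries, 12.7 TPM, and the lowest Hrh1, 0.274 TPM. In that library the 7 oligodendrocyte markers summed to 3161 TPM and the 5 cortical excitatory neuron markers to 1486 TPM. The part of tissue composition in these receptor values was not tested.

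**Figure D2:**
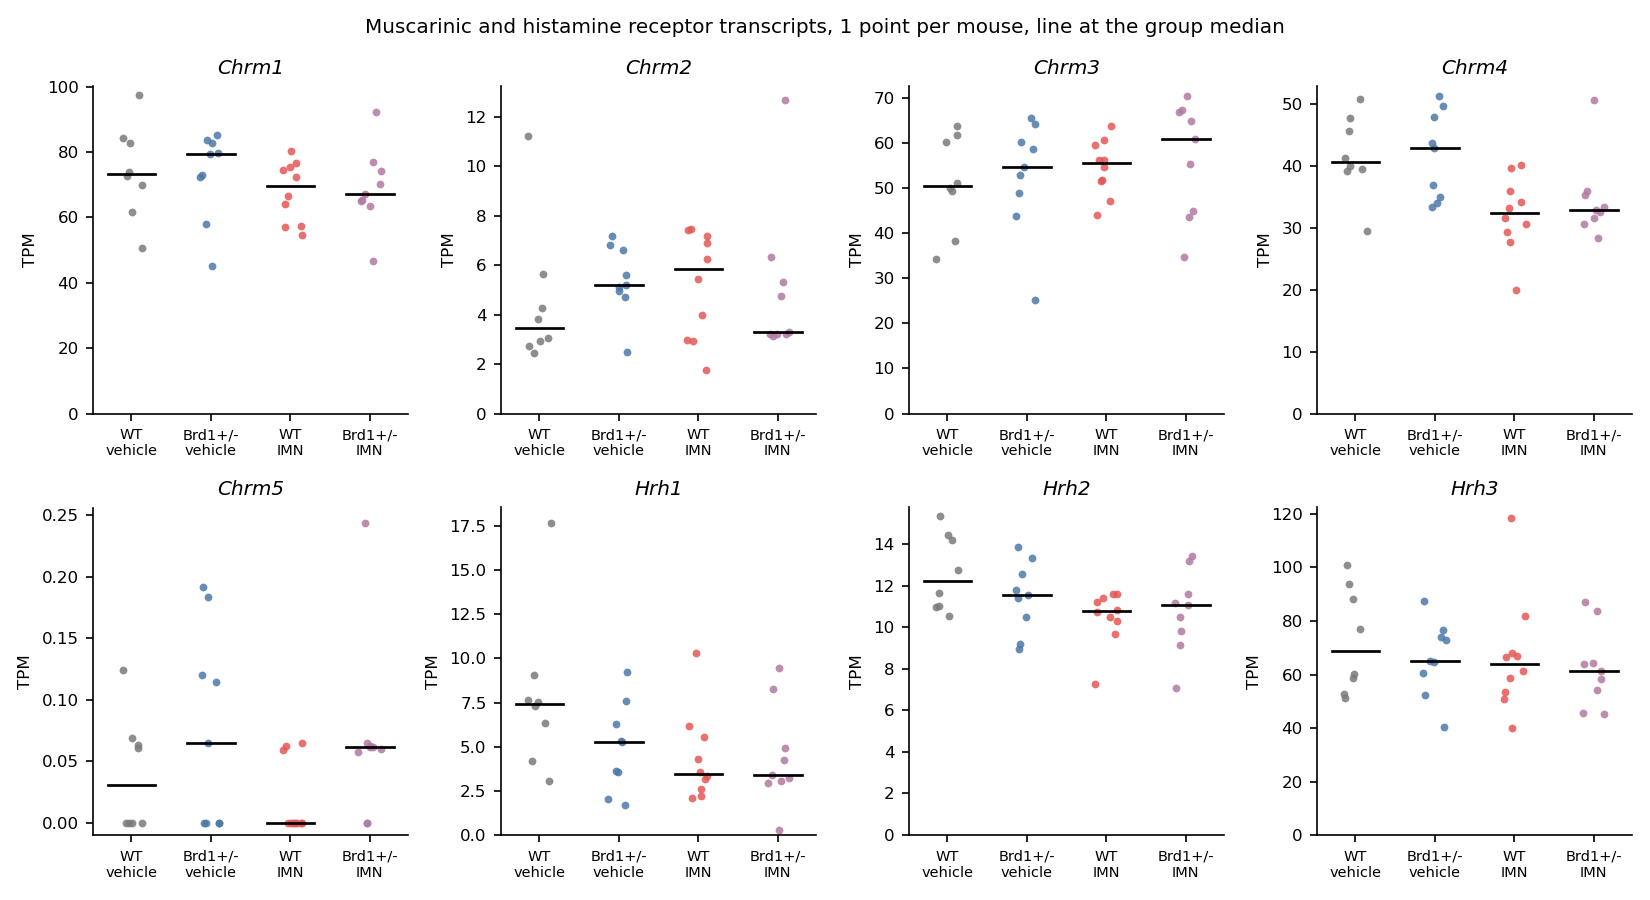
TPM of each receptor gene (vertical axes, 1 panel per gene, linear from 0) in the 4 groups, vehicle on the left and IMN on the right of each panel, with 1 point per library and a line at the group median. Chrm4 medians are 40.6 and 42.8 TPM with vehicle and 32.3 and 32.8 TPM with IMN, with overlapping points, and Chrm5 is at or near 0 throughout.

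The effect of imipramine was read from IMN against vehicle over both genotypes, with genotype as a covariate, on the log2(TPM + 0.5) scale. All 7 receptors that passed the filter of at least 0.1 TPM in at least 8 libraries were tested among 25572 genes by limma, with Benjamini-Hochberg adjustment over all of them. Chrm5 did not pass that filter. None of the 7 had an adjusted p under 0.05 in this comparison, in which 0.274% of all tested genes did. At an unadjusted p under 0.05, 3 of 7 were lower with IMN and 0 were higher, where 9.38% of all genes were called in either direction. Those 3 were Chrm4, Hrh1 and Hrh2, and the count fell to 1, Chrm4, under median-ratio scaling of the libraries, without WT vehicle replicate 2 and without Brd1+/- IMN replicate 5. Hrh1 alone was above 0.05 with a pseudocount of 0.1 (p = 0.0516), no filter on low values (p = 0.0519) or the replicate number as a block (p = 0.0531), by limma. With each of the 36 libraries left out in turn, the unadjusted p stayed under 0.05 in 36 fits for Chrm4, 34 for Hrh2 and 13 for Hrh1, whose highest was 0.0973. The median log2 fold change of the 7 receptors was -0.11, against -0.00 for all genes. In bulk tissue, fewer cells of a type and less RNA per cell cannot be told apart.

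Chrm4, the Gi/o-coupled muscarinic receptor, had the smallest p of the receptors. Its level in WT mice ran from 29.4 to 50.8 TPM with vehicle (median 40.6) and from 20.0 to 40.2 TPM with IMN (median 32.3). All 10 WT IMN libraries lay below the WT vehicle median, and 3 lay below the lowest WT vehicle library, so the groups overlapped. In Brd1+/- mice it ran from 33.3 to 51.3 TPM with vehicle (median 42.8) and from 28.3 to 50.5 TPM with IMN (median 32.8). Here 8 of 9 IMN libraries were under the vehicle median and 5 of 9 were under every vehicle library. Over both genotypes the log2 fold change was -0.32 (SE 0.082, 95% interval -0.49 to -0.15), a level at 80.1% of vehicle, with p = 0.000395 and adjusted p = 0.0795 by limma, rank 127 of 25572 genes. The result lay close to the threshold. The adjusted p was 0.0228 without Brd1+/- IMN replicate 7, the single IMN library at 50.5 TPM, and 0.0296 without WT vehicle replicate 1, the lowest vehicle library at 29.4 TPM. With the 3 libraries highest in striatal markers left out, a choice made after the values were seen, it was 0.0405 with a log2 fold change of -0.30. Over all 36 fits that each left out 1 library the fold change stayed between -0.36 and -0.28 and the adjusted p between 0.0228 and 0.14. The oligodendrocyte markers summed to 2625 TPM in WT vehicle replicate 1 and to 423.0 TPM in Brd1+/- IMN replicate 7. Their part in the Chrm4 values was not tested.

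**Figure D3:**
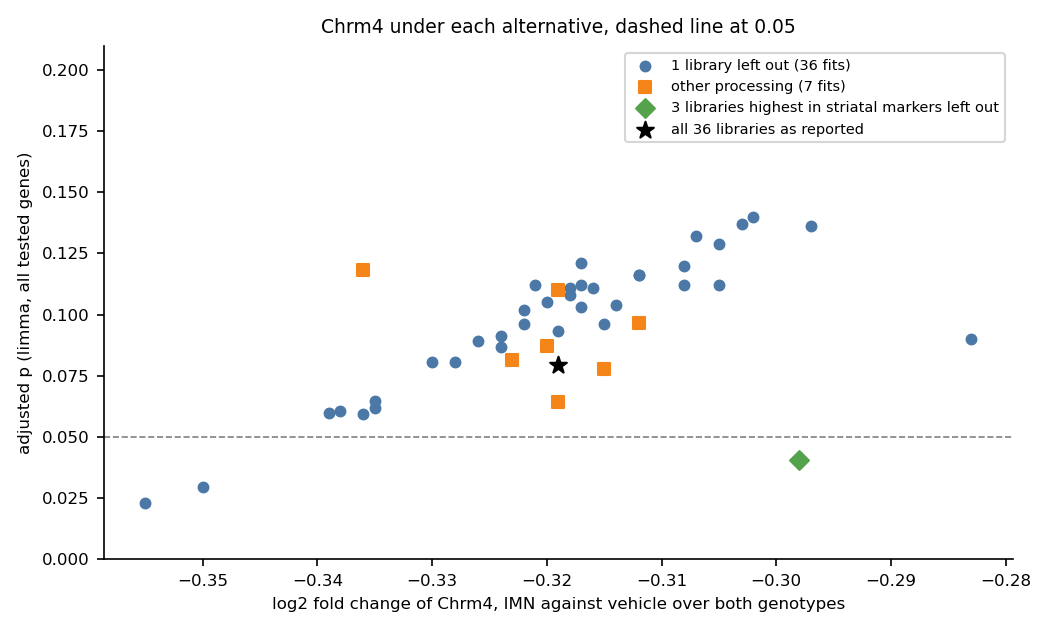
Log2 fold change of Chrm4 for IMN against vehicle over both genotypes (horizontal axis) and its adjusted p (vertical axis) with all 36 libraries (star), with each library left out (circles), under 7 other processing choices (squares) and with the 3 libraries highest in striatal markers left out (diamond). Every fold change is negative, and 3 of the fits fall below the dashed line at 0.05.

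Hrh1, the wakefulness-promoting receptor that imipramine blocks, varied most. With vehicle it ran from 3.07 to 17.7 TPM in WT mice (median 7.43) and from 1.68 to 9.26 TPM in Brd1+/- mice (median 5.25). With IMN it ran from 2.12 to 10.3 TPM in WT mice (median 3.47) and from 0.274 to 9.48 TPM in Brd1+/- mice (median 3.37). Thus 9 of 10 WT IMN libraries and 7 of 9 Brd1+/- IMN libraries were under the vehicle median of their genotype, and the ranges overlapped widely. The log2 fold change over both genotypes was -0.52 (SE 0.26, 95% interval -1.04 to -0.00), with p = 0.0483 and adjusted p = 0.525 by limma.

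Hrh2, the Gs-coupled histamine receptor, had the narrowest spread. With vehicle it ran from 10.5 to 15.4 TPM in WT mice (median 12.2) and from 8.96 to 13.9 TPM in Brd1+/- mice (median 11.6). With IMN it ran from 7.28 to 11.6 TPM in WT mice (median 10.8) and from 7.09 to 13.4 TPM in Brd1+/- mice (median 11.1). All 10 WT IMN libraries were under the WT vehicle median and 4 were under the lowest WT vehicle library, while in Brd1+/- mice 6 of 9 were under the vehicle median. The log2 fold change was -0.17 (SE 0.074, 95% interval -0.32 to -0.02), with p = 0.0258 and adjusted p = 0.44 by limma.

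Promoter sequences of Chrm4, Hrh2 and Hrh1 are given because these were the 3 receptors lower with IMN at an unadjusted p under 0.05. Each is the 250 bases before a RefSeq transcription start in GRCm38.p6, 5′ to 3′ on the plus strand, which is the strand of each gene, taken at the most upstream start listed. They lie at chr2:91921939-91922188, chr13:54191879-54192128 and chr6:114397686-114397935. The Hrh2 and Hrh1 windows adjoin the gene coordinates given above. The Chrm4 window does not, because its RefSeq start lies upstream of the coding-only model that begins at chr2:91927249. Capitals mark the GC box GGGCGG, the element bound by Sp1-type factors.
Chrm4: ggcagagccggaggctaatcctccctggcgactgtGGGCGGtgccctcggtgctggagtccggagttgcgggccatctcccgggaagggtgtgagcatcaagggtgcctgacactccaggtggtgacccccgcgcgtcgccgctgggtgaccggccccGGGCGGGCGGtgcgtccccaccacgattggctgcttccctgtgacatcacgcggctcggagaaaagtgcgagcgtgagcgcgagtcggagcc
Hrh2: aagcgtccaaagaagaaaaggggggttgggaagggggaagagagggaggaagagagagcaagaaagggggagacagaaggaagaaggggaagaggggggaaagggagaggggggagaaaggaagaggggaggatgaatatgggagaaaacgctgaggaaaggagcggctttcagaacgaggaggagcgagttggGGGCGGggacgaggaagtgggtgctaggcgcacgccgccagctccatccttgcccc
Hrh1: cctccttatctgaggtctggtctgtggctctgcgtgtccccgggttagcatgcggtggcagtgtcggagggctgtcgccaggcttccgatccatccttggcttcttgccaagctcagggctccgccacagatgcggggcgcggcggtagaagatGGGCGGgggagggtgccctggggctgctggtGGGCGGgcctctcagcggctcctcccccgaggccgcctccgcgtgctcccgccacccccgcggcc
The GC box, searched on both strands, was found 3 times in the Chrm4 window (with 1 overlapping pair), 1 time in Hrh2 and 2 times in Hrh1, and 32.7% of all 32851 windows of this length held it. Of the 7 receptor genes with a window, Hrh3 held 4 and Chrm2 held 1, while Chrm3 and Chrm5 held none. GC content was 70.0% for Chrm4, 59.6% for Hrh2 and 71.2% for Hrh1, against a median of 52.4% over all windows. Neither TGACG, the core of the cyclic AMP response element (17.8% of all windows), nor GCGTGGGCG, the EGR site (0.536%), occurred in any of the 7 receptor windows on either strand.

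The remaining receptors had intervals that included 0. Chrm1 had a log2 fold change of -0.10 (SE 0.084, 95% interval -0.27 to 0.07, p = 0.256), with group medians of 73.3 and 79.4 TPM with vehicle and 69.4 and 67.2 TPM with IMN in WT and Brd1+/- mice. Hrh3 had -0.11 (SE 0.12, 95% interval -0.35 to 0.13, p = 0.358), with medians of 68.7 and 65.2 TPM with vehicle and 63.8 and 61.3 TPM with IMN. Chrm3 had 0.11 (SE 0.10, 95% interval -0.09 to 0.32, p = 0.274), with medians of 50.5 and 54.8 TPM with vehicle and 55.5 and 60.8 TPM with IMN. Chrm2 had 0.01 (SE 0.19, 95% interval -0.37 to 0.40, p = 0.941), with medians of 3.44 and 5.20 TPM with vehicle and 5.85 and 3.29 TPM with IMN, so that its medians differed in opposite directions in the 2 genotypes. The direction of Chrm2 turned in 12 of the 36 fits that left out 1 library. For these 4 genes the adjusted p by limma ran from 0.792 to 0.993. Chrm5 was at 0 with vehicle in 4 of 8 WT and 4 of 9 Brd1+/- libraries, and with IMN in 7 of 10 WT and 2 of 9 Brd1+/- libraries.

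Within WT mice, IMN against vehicle gave 3 of 7 receptors at an unadjusted p under 0.05, where 6.6% of all genes passed, and 0 of 7 at an adjusted p under 0.05, where 0% passed. Chrm4 had a log2 fold change of -0.37 (SE 0.12, p = 0.00565, adjusted p = 0.586 by limma). For Hrh1 it was -0.78 (SE 0.29, p = 0.0158, adjusted p = 0.665) and for Hrh2 -0.25 (SE 0.095, p = 0.0164, adjusted p = 0.667). Hrh2 was above 0.05 under median-ratio scaling (p = 0.0526) and with the striatal marker score (-0.18, p = 0.0515), which left 2 of 7. The other 4 receptors had fold changes between -0.14 and 0.23. Within Brd1+/- mice, 1 of 7 receptors was at an unadjusted p under 0.05, where 5.52% of all genes passed, and 0 of 7 at an adjusted p under 0.05, where 0.00782% passed. That gene was Chrm4, with -0.27 (SE 0.11, p = 0.0235, adjusted p = 0.826 by limma), and the count was 0 without Brd1+/- vehicle replicate 3 (Chrm4 at p = 0.0505) or with a striatal marker score as a covariate (p = 0.0655). The other 6 receptors had fold changes between -0.27 for Hrh1 and 0.11 for Chrm3. These comparisons share no libraries with each other, but both enter the comparison over both genotypes.

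**Figure D4:**
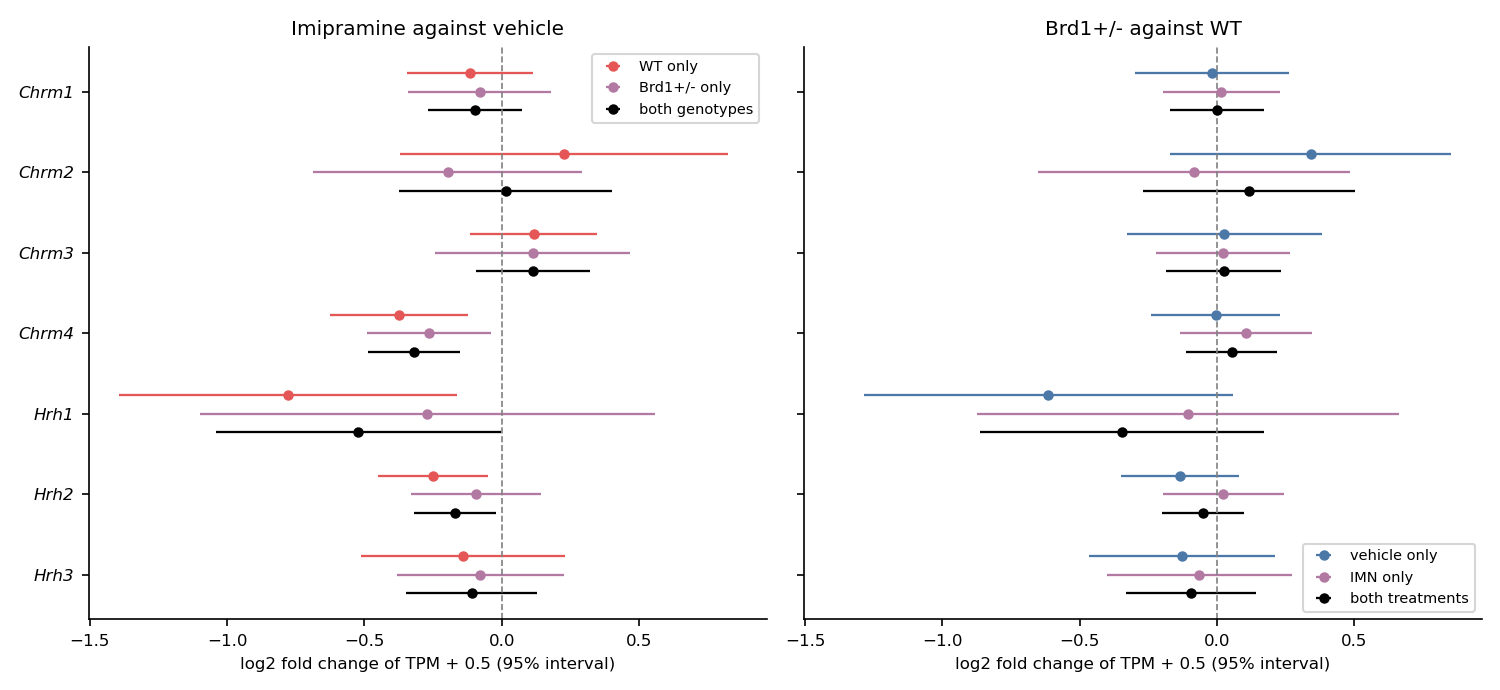
Log2 fold changes of TPM + 0.5 with 95% intervals for the 7 tested receptors, left for IMN against vehicle in WT, in Brd1+/- and over both genotypes, and right for Brd1+/- against WT with vehicle, with IMN and over both treatments. On the left the Chrm4 intervals lie below 0 in all 3 comparisons, and on the right every interval includes 0.

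Whether the response to IMN differed between genotypes was tested by the interaction term. None of the 7 receptors passed at an adjusted p (0% of all genes) or at an unadjusted p under 0.05 (3.2% of all genes). The interaction estimates ran from -0.42 for Chrm2 (SE 0.38, 95% interval -1.20 to 0.35) to 0.51 for Hrh1 (SE 0.51, 95% interval -0.53 to 1.55). For Chrm4 the estimate was 0.11 (SE 0.16, 95% interval -0.23 to 0.44). A positive value means a less negative or more positive response to IMN in Brd1+/- mice.

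Brd1 genotype gave no receptor an adjusted p under 0.05 in any comparison or alternative. With Brd1+/- against WT over both treatments, 0 of 7 receptors passed at an adjusted p under 0.05 (0.00391% of all genes, which is Brd1 itself) or at an unadjusted p under 0.05 (3.62%). With no filter on low values Chrm5 was also fitted, and it was then the 1 receptor at an unadjusted p under 0.05, with 0.11 (SE 0.048, p = 0.0353, adjusted p = 0.972 by limma) at a median of 0.0583 TPM. Hrh1 had the largest estimate of the 7, -0.35 (SE 0.26, 95% interval -0.86 to 0.17, p = 0.183), which was -0.20 without Brd1+/- IMN replicate 6. Chrm2 had 0.12 (SE 0.19, p = 0.543) and ran from 0.03 without Brd1+/- IMN replicate 6 to 0.20 without WT vehicle replicate 1. Among the others, Hrh3 had -0.09 (SE 0.12, p = 0.43), Chrm4 had 0.05 (SE 0.082, p = 0.519) and Hrh2 had -0.05 (SE 0.074, p = 0.493). Chrm3 had 0.02 (SE 0.10, p = 0.812) and Chrm1 had -0.00 (SE 0.084, p = 0.998). The sign of the Chrm1 value turns under median-ratio scaling of the libraries. With vehicle alone, 0 of 7 receptors passed at an adjusted p (0%) or an unadjusted p under 0.05 (3.75%), with estimates from -0.61 for Hrh1 to 0.34 for Chrm2. The unadjusted count was 1 without WT vehicle replicate 1, where Chrm2 had 0.54 (p = 0.011, adjusted p = 0.677 by limma), and also 1 without WT vehicle replicate 3 or 4 or Brd1+/- vehicle replicate 1 or 3, where Hrh1 had -0.70 to -0.77 (adjusted p = 1). With IMN alone, the counts were 0 of 7 at both levels (0% and 3.23% of all genes), with estimates from -0.11 to 0.10. With no filter on low values, Chrm5 was at an unadjusted p under 0.05 there too (0.12, SE 0.058, p = 0.0449, adjusted p = 1).

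The genes around these receptors were followed by lists, 70 genes in all, of which 62 were tested. None passed at an adjusted p under 0.05 in any of the 7 comparisons by limma. For IMN against vehicle over both genotypes, 6 of 62 were at an unadjusted p under 0.05, 9.7% against 9.38% of all genes, with 1 higher and 5 lower. Of the histamine supply and breakdown genes, 3 of 4 were tested and Slc18a2, the vesicular transporter that loads histamine and other monoamines, had the smallest p, with a log2 fold change of -0.25 (SE 0.076, p = 0.00224, adjusted p = 0.17). By genotype, Slc18a2 had -0.07 (SE 0.094, p = 0.475) in WT and -0.43 (SE 0.12, p = 0.00153, adjusted p = 0.543) in Brd1+/- mice, and the interaction term was -0.36 (SE 0.14, p = 0.0159, adjusted p = 1 by limma). In the interaction, 4 of 62 genes were at an unadjusted p under 0.05, all with negative estimates, 6.5% against 3.2% of all genes. The others were Slc18a3, the vesicular acetylcholine transporter, Chat and Gna14, a Gq-class alpha subunit, with medians of 0.205, 0.104 and 0 TPM. Without the 3 libraries highest in striatal markers, Slc18a2 (-0.32, p = 0.0254) and Gna14 (-0.24, p = 0.0269) were still under 0.05, and Chat (p = 0.119) and Slc18a3 (p = 0.136) were not. Plcb1 came under it (-0.33, p = 0.0429 by limma). As the share of all genes in this fit is not given, no excess over all genes can be read from it. Hdc, the histamine-synthesising enzyme, had a median of 0.1 TPM, and Hnmt, which inactivates histamine in brain, had a median of 27.3 TPM.

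Of the 8 tested Gi/o arm genes, 2 were lower at an unadjusted p under 0.05, namely Kcnj9, a subunit of the inwardly rectifying channels that Gi/o receptors open (-0.12, SE 0.047, adjusted p = 0.345), and Gnao1, the Go alpha subunit (-0.12, SE 0.054, adjusted p = 0.477). Of the 10 Gs and adenylyl cyclase genes, Adcy1, a calmodulin-stimulated cyclase, was higher (0.18, SE 0.084, adjusted p = 0.5), and Gnal, the Golf alpha subunit, was lower (-0.17, SE 0.078, adjusted p = 0.5). Of the 7 desensitisation genes, Arrb2, an arrestin, was lower (-0.15, SE 0.075, adjusted p = 0.52). None of the 13 Gq arm genes, the 4 M-current channels, the 7 acetylcholine supply genes or the 10 tested of 16 nicotinic receptor genes was at an unadjusted p under 0.05. The smallest p among the Gq arm genes belonged to Itpr2 (0.09, SE 0.057), among the acetylcholine supply genes to Bche (0.21, SE 0.13) and among the nicotinic receptor genes to Chrna3 (0.22, SE 0.16). The genes at an unadjusted p under 0.05 for IMN over both genotypes changed without the 3 libraries highest in striatal markers. Gnal was then above it (-0.12, p = 0.0876 by limma). Itpr1 (0.31, p = 0.031), Kcnj3 (0.22, p = 0.0138), Adcy9 (0.28, p = 0.00999) and Adcy7 (-0.26, p = 0.0359) came under it. The share of all genes in that fit is not given, so these genes cannot be read as an excess over all genes. Chat, the enzyme that makes acetylcholine, had a median of 0.104 TPM, and Ache, which breaks it down, had a median of 42.1 TPM.

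Of 12 immediate-early genes, which are induced by neuronal activity, 3 had an adjusted p under 0.05 for IMN against vehicle over both genotypes, where 0.274% of all genes did. All 12 had a negative fold change, as had 51% of all genes, and Btg2 (p = 0.595), Dusp1 (p = 0.347) and Ier2 (p = 0.143) did not pass at an unadjusted p by limma. With the 3 libraries highest in striatal markers left out, 8 of 12 had an adjusted p under 0.05, where 137 of 25572 genes did. The 3 that passed with all 36 libraries were Npas4 (-0.94, SE 0.16, adjusted p = 0.00318), Egr1 (-0.66, SE 0.13, adjusted p = 0.00939) and Arc (-0.67, SE 0.13, adjusted p = 0.0108), by limma with all 36 libraries. The summed level of all 12 genes ran from 757.7 to 1583 TPM in WT and 1008 to 1631 TPM in Brd1+/- libraries with vehicle. With IMN it ran from 673.4 to 1257 TPM in WT and 527.5 to 1211 TPM in Brd1+/- libraries. The part of this difference in the values of Chrm4, Hrh1 and Hrh2 was not tested.

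The genes most like each receptor were sought among 17352 genes with a median of at least 1 TPM, by Pearson's r of log2(TPM + 0.5) over the 36 libraries after subtraction of the group means. The libraries share tissue composition, so these values are descriptions. Chrm4 was most like Per1, a clock gene also induced by neuronal activity (r = 0.885), then Erf (r = 0.822) and Dpp6 (r = 0.815). Chrm2 had the closest partners of all 7 receptors, Nrip3 (r = 0.931), Sacm1l (r = 0.927) and Nap1l2 (r = 0.914). For Hrh2 they were Pdzrn3 (r = 0.808), Rgs7 (r = 0.77) and Mlip (r = 0.745), and for Hrh3 Txnrd3 (r = 0.799), Kcng1 (r = 0.781) and Slc6a7 (r = 0.765). Chrm3 was most like Fbxo34 (r = 0.777) and Camk4 (r = 0.739), and Chrm1 was most like Amer3 (r = 0.73), Chst15 (r = 0.729) and Elfn2 (r = 0.715). Hrh1 had the weakest likeness, with Spata2 (r = 0.705), Gm5780 (r = 0.687) and Ildr2 (r = 0.686). Among the receptors themselves the highest r was 0.509 for Chrm3 with Hrh2, followed by 0.473 for Chrm1 with Chrm4, and the lowest was -0.468 for Chrm2 with Chrm4.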

How the data were processed

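RNA of right aCC punches from 36 mice was sequenced by the authors as single-end reads on a BGISEQ-500. The submitters' processing notes name FastQC, Trimmomatic, HISAT2 2.1.0, StringTie 1.3.4 and the build GRCm38. The deposited table holds TPM made by the authors, without scaling between libraries. Strand use and treatment of multi-mapping reads are not given in the sources used here, so Chrm2, which overlaps the opposite-strand gene 9330158H04Rik (median 0.559 TPM), may share reads with it. Since TPM hold no record of depth, counting errors and limits of detection could not be given, and the error of each value is the spread between mice.

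Libraries were grouped by their labels. Tests used limma 3.58.1 in R 4.3.3 (empirical Bayes with trend, two-sided) on log2(TPM + 0.5), a scale that understates changes of low genes. Tested were 25572 genes that reached 0.1 TPM in 8 or more libraries, and p-values were adjusted by Benjamini-Hochberg over all of them. The 4 group comparisons used their own libraries, and the comparisons over both genotypes, over both treatments and the interaction used all 36. Orders of level were compared with 100000 sign flips in Python 3.11.15 (numpy 2.4.6, pandas 2.3.3), and matplotlib 3.10.9 made the plots. The limma fits were also run on simulated data with known changes. There each gene was drawn independently, without shared tissue composition, so that run gives no error rates for these data.

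The 8 members and the gene lists were chosen with earlier results of these data known. All 8 receptors are named with their levels. Fold changes are given for every tested receptor in the comparisons over both genotypes and both treatments, for those at an unadjusted p under 0.05 elsewhere, and for genes of each list at an adjusted p under 0.05 or, failing that, the gene of smallest p. The Kcnj9, Gnao1, Adcy1, Gnal and Arrb2 group, Itpr1, Kcnj3, Adcy9, Adcy7, Plcb1, Hdc, Hnmt, Chat, Ache, Slc18a3, Gna14, Btg2, Dusp1 and Ier2 were named with values seen. Alternatives changed the pseudocount (0.1 or 1), the filter (none, or a mean of at least 1 TPM), the scaling (median-ratio), the covariates (a striatal marker score or the replicate block), the libraries in the fit (each left out, or all 36 in 1 fit) and, added after the data were seen, left out the 3 libraries highest in striatal markers. The values of a few genes that the naming rule picks are not reported here.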

Additional observations from a re-analysis of the deposited data

Results flagged for a closer look

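Dixon's test was run on TPM, without the log2 scale of the limma tests, in 28 sets of values (7 receptors in 4 groups). In 7 sets the gap of a library to the next exceeded the 95% critical value. The chance rate of about 1 in 20 assumes normally distributed values, which was not tested for TPM. All flagged libraries except that of Hrh2 stood apart on the high side, as a skew of TPM would also give. The count of 7 therefore cannot be read as an excess over chance. Chrm2 stood apart at 11.2 TPM in WT vehicle replicate 1 and at 12.7 TPM in Brd1+/- IMN replicate 6, with the next highest libraries of these groups at 5.63 and 6.34 TPM. The 7 oligodendrocyte markers summed to 2625 and 3161 TPM in these libraries, and their part in the Chrm2 values was not tested. Chrm4 stood apart at 50.5 TPM in Brd1+/- IMN replicate 7, where the next value was 35.9 TPM. The 12 immediate-early genes summed to 1211 TPM there, the highest of that group. Hrh1 stood apart at 17.7 TPM in WT vehicle replicate 7, next to 9.05 TPM, and at 10.3 TPM in WT IMN replicate 5, next to 6.18 TPM. Hrh2 stood apart on the low side at 7.28 TPM in WT IMN replicate 7, below 9.65 TPM, in the library that also had the lowest Chrm4 of all 36, 20.0 TPM. That library had the highest oligodendrocyte sum of all 36, 3230 TPM, and the second-highest striatal sum, 411.1 TPM, and their part in its Hrh2 and Chrm4 values was not tested. Hrh3 stood apart at 118.5 TPM in WT IMN replicate 4, above 81.9 TPM.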

How the results depend on the processing

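No receptor passed an adjusted p of 0.05 in 6 of the 7 comparisons under any alternative. In the comparison of IMN with vehicle over both genotypes the count was 0 or 1 over the fits without 1 library, and 1 with the 3 libraries highest in striatal markers left out. That gene was Chrm4, which kept a negative fold change throughout and had an adjusted p between 0.0405 and 0.118 in the 8 other settings. The replicate number, used as a replicate block, gave it -0.34 with an adjusted p of 0.118. Among same-numbered libraries of different groups, 7 of 51 pairs had r over 0.1 (median -0.02). Among differently numbered ones, 82 of 434 pairs did (median -0.005). The same-numbered libraries thus did not deviate together more than others, and the numbers were not taken as pairs. The number of all genes called over both genotypes was 70, 37 with the replicate block, 137 without the 3 libraries and between 35 and 170 without 1 library (170 without WT vehicle replicate 1, 112 without Brd1+/- IMN replicate 7). For WT IMN against WT vehicle it was 0, with 1 without the 3 libraries and 0 to 32 without 1 library (32 without WT vehicle replicate 1). For Brd1+/- vehicle against WT vehicle it was 0, with 1 under the mean filter, median-ratio scaling or 1 fit of all libraries, 2 with the striatal score or without the 3 libraries, and 0 to 2 without 1 library. For Brd1+/- IMN against Brd1+/- vehicle it was 2, with 0 under either other pseudocount, the mean filter or the replicate block, 1 with no filter, median-ratio scaling, the striatal score, 1 fit of all libraries or without the 3 libraries, and 0 to 1 without 1 library. Over both treatments it was 1, and 1 to 3 without 1 library. The cause of these shifts was not tested.

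The Brd1+/- against WT value of Chrm1 over both treatments, -0.00, turned to 0.009 under median-ratio scaling and 0.008 with the replicate block, and ran from -0.033 to 0.038 without 1 library. For Chrm4 it turned from 0.05 to -0.031 without the 3 libraries, and for Chrm3 it ran from -0.010 to 0.082 without 1 library. The IMN value of Chrm2 over both genotypes ran from -0.065 to 0.10 without 1 library. In the order of levels, 6 of 8 genes kept their place by the mean and in WT vehicle, Brd1+/- vehicle and Brd1+/- IMN mice, where Hrh1 and Chrm2 exchanged places. Median-ratio scaling moved the share of unadjusted calls that were higher from 30.7% to 43.3% for WT IMN against WT vehicle, from 32.6% to 45.1% for Brd1+/- vehicle against WT vehicle, and from 68.2% to 57.0% for the interaction. The unknown depth limits what can be said of Chrm5 and of other genes near 0.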

Other observations

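Markers of the cell types that a punch could hold were compared for IMN against vehicle over both genotypes by limma, and none of these lists held a gene with an adjusted p under 0.05. The smallest p among the endothelial markers belonged to Slco1a4, an organic anion transporter (log2 fold change 0.38, SE 0.13, adjusted p = 0.264). In 6 other lists it belonged to Ctgf of deep cortical layers (0.37, SE 0.28), Mobp of oligodendrocytes (0.52, SE 0.45), Cux1 of upper layers (-0.09, SE 0.091), Aif1 of microglia (-0.10, SE 0.11), Slc1a2 of astrocytes (0.05, SE 0.053) and Pvalb of interneurons (0.21, SE 0.33). The median summed level of the 7 oligodendrocyte markers was 383.6 TPM in WT vehicle, 551.7 in Brd1+/- vehicle, 899.9 in WT IMN and 683.5 TPM in Brd1+/- IMN mice, with highest values of 2625, 1651, 3230 and 3161 TPM, so the groups overlapped. All 7 had a positive fold change over both genotypes (median 0.37), 0 of them at an unadjusted p under 0.05 by limma. Their part in the receptor values was not tested.

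The nicotinic receptor genes gave the fast cholinergic background of the same punches. Chrnb2 had a median of 17.7 TPM, Chrna4 11.4 TPM and Chrna7 7.09 TPM, and Chrnd, Chrne and Chrng, subunits of the muscle receptor, were at 0 in all 36 libraries. Chrna5 ran from 0.158 to 13.0 TPM around a median of 0.882 TPM.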
